A study of Mus musculus with 7 samples.

Results

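Tetraspanins are small multi-pass membrane proteins that hold integrins, immunoglobulin-type receptors, proteases and each other in clusters at the cell surface and in endosomes. They carry no enzyme activity of their own and are known for setting where partner proteins sit and how they leave the cell, for example on exosomes. In dendritic cells, members such as CD37, CD53, CD63, CD81 and CD82 are known for work with major histocompatibility complex class II molecules, in migration and in antigen uptake. The members were taken as every gene on the arrays whose symbol starts with Tspan, together with Cd9, Cd37, Cd53, Cd63, Cd81, Cd82 and Cd151. By RefSeq accession this gave 27 genes, read by 37 probes, of 20018 genes that could be named on the arrays. The rule goes by gene symbol and uses no measured value, though the family was picked with earlier results of these data known. Of the 27 genes, 23 were tested because 3 or more of the 7 arrays read a probe well above background by the scanner software's flag, and for 20 of these all 7 arrays did.

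The arrays carried RNA of dendritic cells from mouse common myeloid progenitors, bone marrow cells that give rise to granulocytes, monocytes, red cells and platelets. Progenitor donors, on the C57BL/6 background, carried floxed Gata2 (Gata2 f/f), and every one received tamoxifen, a drug that activates an estrogen receptor-Cre fusion, between day 1 and day 10. Mice of the group labelled knockout (3 arrays) also carried that fusion (ER-Cre). Those of the control group (4 arrays) did not. The promoter that drives the Cre, the animals' age and any pooling are not given in the labels. Progenitors were sorted on days 20 to 22 and grown with FLT3 ligand at 200 ng/ml on bone marrow feeder cells of SJL mice, and the labels do not say how dendritic cells were parted from feeders. Nothing says that replicates came from separate animals or cultures, and the spread that the p-values rest on may therefore be technical, between these arrays alone. In bulk RNA of this kind, fewer cells of a type and less RNA per cell cannot be told apart.

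Gata2 was read by 1 probe, which stood at 2.93, 3.00 and 3.06 on the arrays labelled knockout and at -0.25, 0.24, 0.36 and 0.34 on the controls. All values here are log2 signals relative to the array's own 75th percentile, unless an intensity is named. Gata2 was therefore 7.08-fold brighter where the label says knockout (limma adjusted p = 0.000153). The labels do not place this probe relative to the floxed part, so it does not check them, and directions below are those of the arrays as labelled. Of 12 dendritic cell markers, 11 were well above background on all 7 arrays, none of these 11 passed the test, and their summed signal was 294 to 342 times the array's 75th percentile in the arrays labelled knockout and 317 to 375 times in the controls. Xcr1, a receptor of cross-presenting dendritic cells, was well above background on 1 array labelled knockout and on no control. The share of spots well above background was 61.5% to 67.4% for the arrays labelled knockout and 54.1% to 56.9% for the controls. The knockout arrays filled one row of the slide and the control arrays the other, so row, Cre and group cannot be told apart.

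Of the 23 tested tetraspanin genes, Tspan12 and Cd63 were lower in the arrays labelled knockout and Tspan6 was higher. Tspan12, a partner of the Wnt receptor Frizzled-4, had a clear signal on every control. Only 1 array labelled knockout read it well above background, so it entered the test through the controls. Cd63, the lysosomal and granule membrane tetraspanin, fell 3.82-fold from a bright signal, and Tspan6, a negative regulator of antiviral signalling through MAVS, rose 2.07-fold. The other 20 genes did not pass the threshold of 0.05 after Benjamini-Hochberg adjustment over 14549 genes. Among all genes tested, 1.38% were called lower and 1.49% higher, and 2.87% either way, rates at which fewer than 1 of 23 genes would be called. The median difference of the tested members was -0.16, against -0.05 over all genes tested, with 14 members below 0 and 9 above. Over all genes tested, 8432 were below 0 and 6117 above, so most genes leaned the same way.

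**Figure D1:**
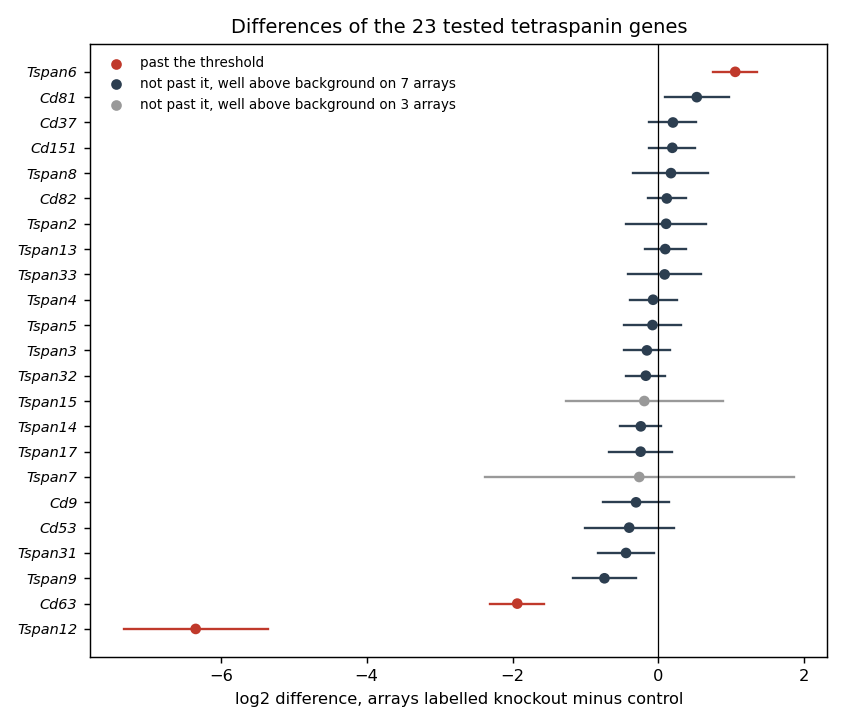
Difference in log2 signal, arrays labelled knockout minus control, for the 23 tested tetraspanin genes (vertical axis), with the 95% interval from the limma fit as a line; red marks the 3 genes past the threshold, and grey the 2 genes that were well above background on 3 arrays only. Tspan12 lies at -6.34, Cd63 at -1.94 and Tspan6 at 1.05, while the other 20 lie between -0.74 and 0.53.

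Tspan12 (Entrez Gene 269831) encodes a tetraspanin known from the retina, where it strengthens Norrin signalling through Frizzled-4 and the co-receptor LRP5. It stood at -1.19, -0.63, -1.45 and -1.29 on the controls and at -8.40, -7.64 and -6.41 on the arrays labelled knockout. As deposited, the spot intensity was 1443, 2002, 978 and 1260 on the controls and 9.83, 19.1 and 43.4 on replicates 1, 2 and 3 labelled knockout. The groups were far apart, and the only array labelled knockout on which the probe was well above background was replicate 3, the brightest of the 3. The probe thus entered the test through the controls, the group where it was high. The means were -7.49 ± 1.00 (SD, n = 3) and -1.14 ± 0.35 (SD, n = 4), a log2 difference of -6.34 (SE 0.43, limma adjusted p = 0.000187). Because 2 of the 3 low values were not flagged well above background, the size depends on where the floor is set. A floor was taken on each array as the dimmest signal that its flags still put well above background. These floors averaged -6.65 ± 0.38 (SD) over 3 arrays labelled knockout and -5.51 ± 0.13 (SD) over 4 control arrays, and with values raised to them the fall was 40.6-fold (limma adjusted p = 9.61e-06). With 1 floor common to all arrays the difference was -4.18 (limma adjusted p = 0.000312). The own floors replaced 2 of the 3 values labelled knockout, and the common floor set all 3 to 1 constant. Replaced values carry no measured spread, so the adjusted p-values of these floored fits add no support. With normexp background correction, which added 50 intensity units to every spot, the difference was -3.94. That added amount limits its size. Over the 19 alternatives in which Tspan12 was tested, its adjusted p ranged from 9.04e-06 to 0.00809.

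Of the partners of TSPAN12, Fzd4 was dim: all 3 arrays labelled knockout, but 2 of 4 controls, read it well above background. Floors were lower on the arrays labelled knockout (mean -6.65 against -5.51), so this count does not by itself show a difference. The log2 difference of Fzd4 was 0.23, with a 95% interval from -0.32 to 0.79. Lrp5 had a difference of 0.06 (95% interval -0.26 to 0.38), and Ndp, which encodes Norrin, was well above background on 2 arrays and not tested. Neither receptor gene was called.

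Cd63 (Entrez Gene 12512) encodes the tetraspanin of late endosomes, lysosomes and secretory granules, known as the surface sign of basophil degranulation and as an exosome marker. It read 3.89, 4.34, 4.01 and 4.03 on the controls and 2.03, 2.00 and 2.37 on the arrays labelled knockout. Each group was tight, and the gap between them was several times either spread. The means were 2.13 ± 0.21 (SD, n = 3) and 4.07 ± 0.19 (SD, n = 4), a log2 difference of -1.94 (SE 0.16, 95% interval -2.30 to -1.57, limma adjusted p = 0.000451). All 7 arrays read it far over background, so no floor enters, and the call was kept in all 20 alternatives, with differences between -2.05 and -1.70. The intensity was 43158 to 62903 on the controls and 13579 to 19115 on the others, and no tetraspanin probe was saturated.

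The other genes of the late endosome and of exosome release did not share a fall of that size. Of 14 such genes on the arrays, all 14 were tested and none passed, with a median difference of -0.22 and 11 below 0. Of the 14549 genes tested, 8432 were below 0. Lamp1 and Lamp2, the main lysosomal membrane glycoproteins, differed by -0.44 (95% interval -0.92 to 0.05) and -0.40 (95% interval -0.78 to -0.01), with adjusted p = 0.423 and 0.352 by limma. Read by its probe of largest interquartile range, Lamp2 differed by -0.76 (adjusted p = 0.103). Rab27b, a small GTPase of granule and exosome docking, differed by -1.02 (95% interval -1.64 to -0.40) and did not pass (limma adjusted p = 0.114); with array weights it did (adjusted p = 0.0122, range over alternatives 0.0122 to 0.343). The fit with array weights made more calls throughout, 699 genes higher and 822 lower against 217 and 201 without them.

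Tspan6 (Entrez Gene 56496) was the member that rose. It stood at 0.97, 0.63, 0.70 and 0.88 on the controls and at 1.82, 1.92 and 1.81 on the arrays labelled knockout. Every array labelled knockout was brighter than every control. The means were 1.85 ± 0.06 (SD, n = 3) and 0.80 ± 0.16 (SD, n = 4), a log2 difference of 1.05 (SE 0.13, 95% interval 0.75 to 1.36, limma adjusted p = 0.00435). The call held without each array in turn, with adjusted p from 0.00935 to 0.0274.

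Tspan9, a tetraspanin best known from platelets, came next by p-value. It read -4.09, -4.40, -4.41 and -4.83 on the controls and -5.15, -5.04 and -5.33 on the arrays labelled knockout. The groups did not overlap, but control replicate 4 lay close to the lower group. The log2 difference was -0.74 (SE 0.19, 95% interval -1.17 to -0.31) and did not pass (limma adjusted p = 0.0963). Without control replicate 4 the difference was -0.87 and passed (adjusted p = 0.0411), as it did with normexp correction (adjusted p = 0.0299), without a filter on background (adjusted p = 0.042) and with array weights (adjusted p = 0.014). Over all alternatives the adjusted p ran from 0.014 to 0.356. Its signal was dim, with intensities of 91.7 to 116 on the arrays labelled knockout and 108 to 194 on the controls.

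**Figure D2:**
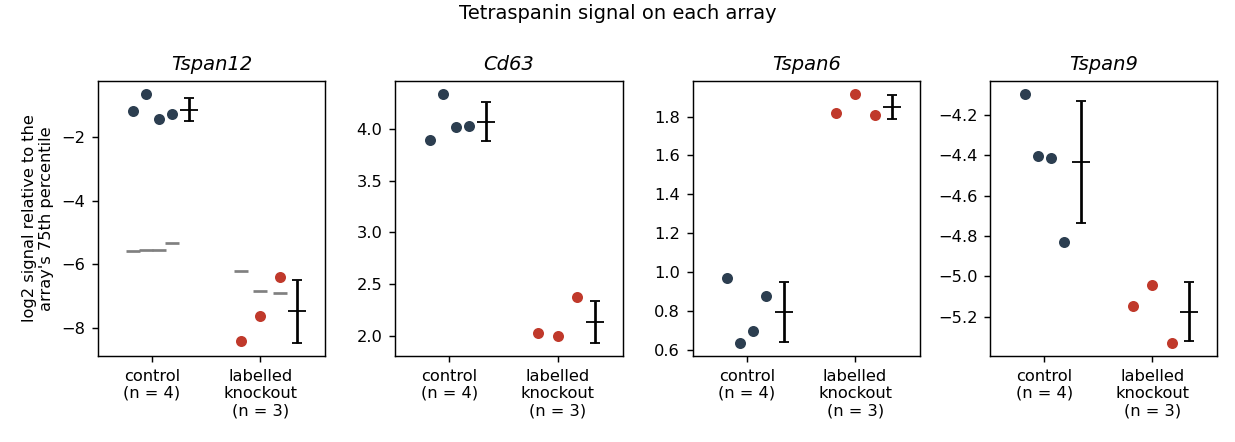
Log2 signal relative to the array's 75th percentile (vertical axes, a scale of its own for each gene) of Tspan12, Cd63, Tspan6 and Tspan9 on each control array and each array labelled knockout; black bars give the mean and SD, and grey ticks in the Tspan12 panel each array's dimmest signal well above background. In Tspan12, replicates 1 and 2 labelled knockout lie under their grey tick at -8.40 and -7.64, and in Tspan9 the lowest control, at -4.83, lies near the highest array labelled knockout, at -5.04.

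The promoters of the 3 called genes are shown because the targeted gene encodes a GATA factor and these are the members whose signal changed. The sequences are from RefSeq on build GRCm38.p6, 5′ to 3′ on the gene's strand, and end at the base before the transcription start. Capitals mark the letters GATA on either strand. The first is chr6:21852534-21852783 (minus strand), the second chr10:128909095-128909344 (plus strand) and the third, cut to the last 100 bases because the rest is mainly a purine repeat, chrX:133898430-133898529 (minus strand).
Tspan12: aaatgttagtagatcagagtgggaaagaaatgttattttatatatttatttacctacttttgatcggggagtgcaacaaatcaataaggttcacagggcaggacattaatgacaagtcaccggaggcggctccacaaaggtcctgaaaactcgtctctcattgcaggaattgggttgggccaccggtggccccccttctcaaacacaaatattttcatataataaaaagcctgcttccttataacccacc
Cd63: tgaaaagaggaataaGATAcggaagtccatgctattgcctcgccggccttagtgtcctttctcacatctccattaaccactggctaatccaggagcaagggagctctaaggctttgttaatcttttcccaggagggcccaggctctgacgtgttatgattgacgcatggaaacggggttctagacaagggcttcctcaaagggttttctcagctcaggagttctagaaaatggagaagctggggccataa
Tspan6: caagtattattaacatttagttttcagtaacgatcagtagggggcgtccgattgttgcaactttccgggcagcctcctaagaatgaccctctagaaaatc
GATA occurred in the 250 bases before the start of Cd63, beginning at position -235 from the start, and in neither of the others. Longer words that hold GATA were also searched, namely AGATAA as 1 form, AGATAG as another, TGATAA as the third and TGATAG as the last, and none was found in the 3. Searched on both strands, at least 1 of these longer words lay in a promoter of 8 of 26 tetraspanin genes with an entry (30.8%) and of 29.7% of 27025 genes with one. The 8 were Cd37, Cd53, Tspan1, Tspan8, Tspan9, Tspan10, Tspan14 and Tspan32. GATA alone lay in a promoter of 14 of the 26 (53.8%) and of 57.4% of all these genes. CACGTG, the E-box bound by lysosomal gene regulators, was found in Cd37 and Tspan4 only, 7.69% against 6.86% of all genes. These are matches of letters in a short window and do not show binding.

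The leukocyte tetraspanins were measured on every array, and none of the 7 passed. Cd81, a partner of integrins, had the highest difference. It stood at 3.42, 3.71, 3.88 and 3.56 on the controls and at 3.82, 4.48 and 4.20 on the arrays labelled knockout, and the groups overlapped. The log2 difference was 0.53 (SE 0.19, 95% interval 0.09 to 0.96, limma adjusted p = 0.26), and over the alternatives the adjusted p ranged from 0.0497, with array weights, to 0.618. Cd53, which organises integrins and L-selectin on leukocytes, differed by -0.40 (95% interval -1.01 to 0.21). Its values were the most scattered of the 7, at 2.54, 3.41 and 2.81 on the arrays labelled knockout and 3.45, 2.77, 3.56 and 3.51 on the controls. Cd9, a tetraspanin of cell fusion and of platelets, differed by -0.31 (95% interval -0.76 to 0.14).

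Cd37, a tetraspanin of B cells and dendritic cells, differed by 0.20 (95% interval -0.12 to 0.52), and Cd151, a partner of laminin-binding integrins, by 0.19 (95% interval -0.13 to 0.51). Cd82, named for suppression of metastasis, read 3.21, 3.33 and 3.33 on the arrays labelled knockout and 3.20, 3.22, 3.18 and 3.12 on the controls, a difference of 0.11 (95% interval -0.14 to 0.37). Tspan32, a blood cell tetraspanin that restrains T cell proliferation, had groups that did not overlap, at 2.48, 2.36 and 2.46 against 2.54, 2.57, 2.70 and 2.61 on the controls. That difference was small, -0.17 (95% interval -0.44 to 0.09). Before scaling, the Tspan32 intensities overlapped, at 18508 to 20332 on the arrays labelled knockout and 17386 to 19161 on the controls. A fall of the size seen for Cd63 lay outside the 95% interval of each of the 7 genes. Over the 23 tested members, 5 had groups that did not overlap with the arrays labelled knockout lower and 1 with them higher, against 8.08% and 5.77% of all genes tested. The 5 lower were Tspan12, Cd63, Tspan9, Tspan14 and Tspan32. These counts hold for the scaled values, and the unscaled intensities of Tspan9, Tspan14 and Tspan32 overlapped between the groups.

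The TspanC8 tetraspanins Tspan5, Tspan10, Tspan14, Tspan15, Tspan17 and Tspan33 escort the sheddase ADAM10 to the cell surface. Of these 6, 5 were tested and none passed, with differences from -0.24 to 0.09. Tspan14 read 4.39, 4.34 and 4.22 on the arrays labelled knockout and 4.64, 4.46, 4.65 and 4.47 on the controls. Its groups did not overlap, and the difference was -0.24 (95% interval -0.52 to 0.04, limma adjusted p = 0.453). Before scaling, the Tspan14 intensities did overlap, at 68660 to 77653 on the arrays labelled knockout and 67113 to 82418 on the controls. Tspan17 also differed by -0.24 (95% interval -0.68 to 0.19) and Tspan5 by -0.08 (95% interval -0.47 to 0.31). Tspan33, first known from erythroid progenitors, was at 1.97 on replicate 2 labelled knockout and at 2.77 and 2.73 on replicates 1 and 3, with controls from 2.23 to 2.61, a difference of 0.09. Adam10 itself differed by -0.35 (95% interval -0.79 to 0.09, limma adjusted p = 0.484), and of the 9 genes for ADAM10, ADAM17 and their substrates, all tested, none passed.

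**Figure D3:**
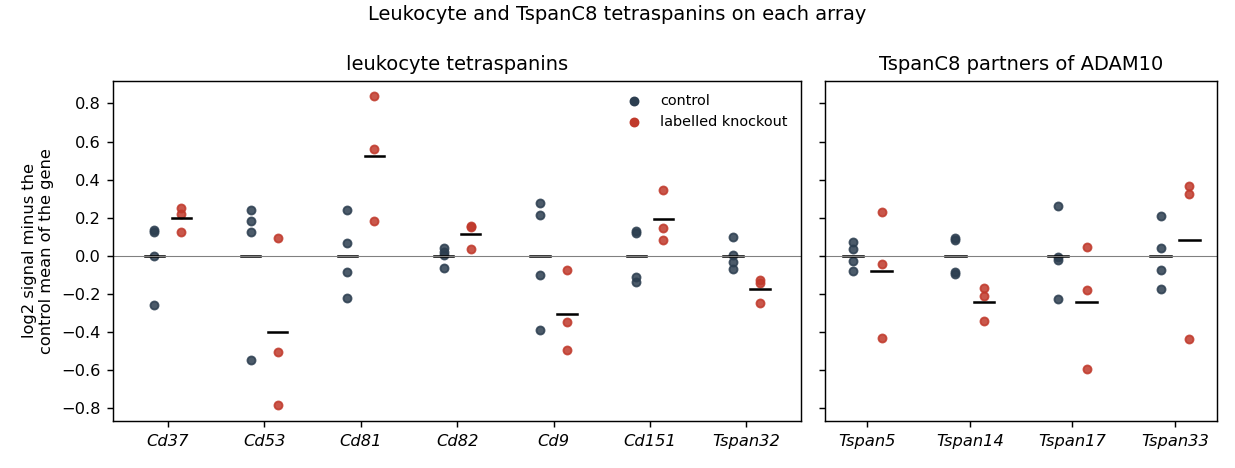
Log2 signal minus the control mean of the same gene (vertical axis) for the 7 leukocyte tetraspanins and the 4 TspanC8 genes well above background on all arrays; points are arrays, short black lines group means, red the 3 arrays labelled knockout and dark blue the 4 controls. Cd81 has the highest mean difference at 0.53 and Cd53 the lowest at -0.40, and in Tspan14 and Tspan32 no red point reaches a dark blue one.

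Of the remaining members, none passed. Tspan31, which lies in an amplified region of sarcomas, differed by -0.44 (95% interval -0.83 to -0.06, limma adjusted p = 0.28), with 3.00, 3.48 and 3.17 on the arrays labelled knockout and 3.38, 3.72, 3.77 and 3.77 on the controls. Tspan3 differed by -0.16, Tspan4, a tetraspanin of migrasomes, by -0.07 and Tspan13 by 0.09. Tspan2, a tetraspanin of oligodendrocytes and the most spread of these among the controls (SD 0.41), differed by 0.11 and Tspan8, a partner of laminin-binding integrins in epithelia, by 0.17. The 18 members that were well above background on all arrays and did not pass had differences from -0.74 to 0.53, and their 95% intervals together spanned -1.17 to 0.96. The median SD over tested members was 0.21 in the arrays labelled knockout and 0.19 in the controls, near the medians over all genes, which were 0.22 and 0.21.

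Several tested probes read each of 7 genes, Cd37, Cd82, Cd151, Tspan2, Tspan5, Tspan17 and Tspan32. Only Tspan2 had probes of opposite sign, at 0.11 and -0.01, both near 0. The dimmer probe of Cd151 gave 0.39 where the brighter gave 0.19, and neither passed in a fit over all probes (limma adjusted p = 0.411 and 0.687). No probe of these 7 genes was called in that fit, in which 0.841% of all probes were called higher and 0.522% lower. Some members are neighbours on the genome. Tspan32 and Cd81 are next to each other on chromosome 7 and differed by -0.17 and 0.53, and Cd151 and Tspan4, also on chromosome 7 with 1 protein-coding gene between them, by 0.19 and -0.07.

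At the edge of detection, Tspan7 and Tspan15 were well above background on 3 of 7 arrays, the fewest that were tested. Tspan7, a tetraspanin of neurons, read -6.93, -5.83 and -5.86 on the arrays labelled knockout and -6.07, -3.23, -7.49 and -6.99 on the controls, with control replicate 2 the single control well above background. Its difference of -0.26 had a 95% interval from -2.38 to 1.86, so the arrays could not show a change at this signal. Tspan15 differed by -0.19 (95% interval -1.27 to 0.89). Just outside, Tspan18 was well above background on 2 arrays, both labelled knockout, and Tspan10 on 1. The brighter Tspan18 probe had means of -6.09 in the arrays labelled knockout and -6.12 in the controls. Floors averaged -6.65 and -5.51 in these groups, so the flags of Tspan18 do not show a difference between them. Tspan1 and Tspan11 were well above background on no array. Of 4 tetraspanin genes that carry other names, Prph2 was dim on every array, and the other 3, Upk1a, Upk1b and Rom1, were tested and did not pass.

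Membrane partners gave 2 calls. Of 24 such genes on the arrays, 19 were tested, 2 were lower and none higher, with a median difference of 0.06. Over all genes tested, 1.38% were called lower and 1.49% higher. Itgb3, the beta chain of the platelet fibrinogen receptor and of the vitronectin receptor, differed by -0.97 (SE 0.15, limma adjusted p = 0.0117). Without replicate 1 labelled knockout it did not pass (adjusted p = 0.0549). Cd36, a scavenger receptor that binds tetraspanins on platelets, differed by -2.50 (SE 0.44, limma adjusted p = 0.0215). That call was lost with the common floor (difference -1.93, adjusted p = 0.119). It was also lost on leaving out any array of the group labelled knockout, or control replicate 4 (adjusted p from 0.0579 to 0.0994).

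Markers of other blood cells also differed. The counts below stand beside 1.38% of all genes tested called lower and 1.49% called higher. Of 9 tested mast cell and basophil markers, 6 were lower (Cpa3, Ms4a2, Fcer1a, Hdc, Prss34 and Mcpt8) and none higher, with a median difference of -2.75. Their summed signal was 7.66 to 10.7 times the array's 75th percentile in the arrays labelled knockout and 18.5 to 30.2 times in the controls. No array labelled knockout read Ms4a2, an IgE receptor chain, well above background, so it entered the test through the 4 controls. The mast cell chymase Cma1 was well above background on 1 array labelled knockout and on no control, with means of -7.23 and -7.34. Kit, a receptor of mast cells and of progenitors, differed by -0.20 (95% interval -0.59 to 0.20). On the arrays labelled knockout Kit was by far the brightest tested gene of the list, at 2.70, 3.29 and 2.76. It made up most of the summed signal there, so the sums do not show how far the called genes fell. Of 9 megakaryocyte and platelet markers, 4 were lower (Gp1ba, Gp1bb, Pf4 and Ppbp) and none higher, with sums of 28.5 to 35.1 against 47.3 to 76.2, and all 9 were well above background on every array. Of 8 tested monocyte and macrophage markers, 5 were lower, among them Adgre1, C1qc and F13a1, with sums of 57.0 to 68.0 against 88.2 to 106.7. C1qc was well above background on 1 array labelled knockout and on 4 controls. C1qb, Csf1r and Ccr2 did not pass, at -0.41, -0.30 and -0.36 (limma adjusted p = 0.461, 0.472 and 0.237). The list is not wholly independent of the study, which singled out part of it on these samples. Mertk was dim, well above background on 1 control and no array labelled knockout, and was not tested. Of 8 neutrophil markers, 2 were lower (Elane and Prtn3), with sums of 39.2 to 56.0 against 69.8 to 75.5. Replicate 1 labelled knockout stood apart from the other 2 for the granule genes S100a8 (-0.18 against -3.17 and -3.34), S100a9 (1.95 against -0.64 and -1.18) and Camp (0.62 against -3.80 and -4.42), and lay within the control range for each. Every other gene of the neutrophil list lay below all controls on that replicate, other late granule genes among them. No T cell, B cell or erythroid marker passed. The mast cell and basophil, megakaryocyte, monocyte and neutrophil sums were lower in the arrays labelled knockout, as Cd63 and Tspan12 were. The part of these cell types in the Cd63 and Tspan12 differences was not tested.

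**Figure D4:**
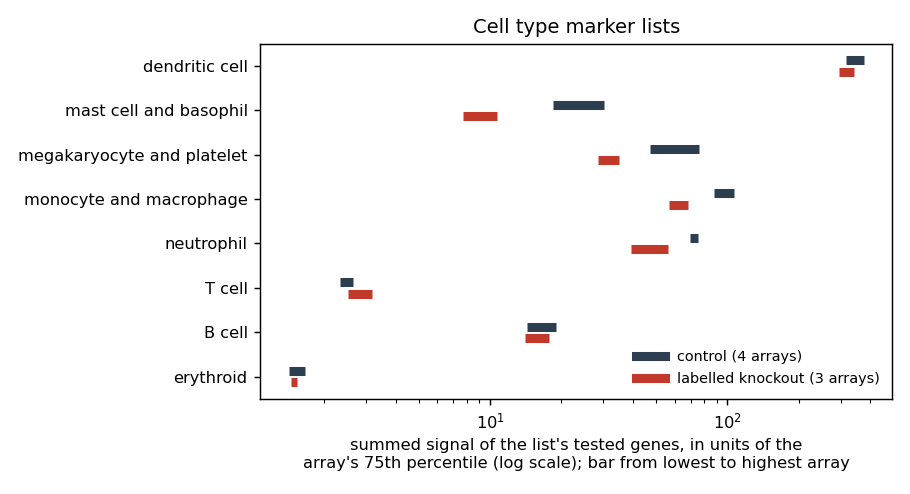
Summed signal of the tested genes of each marker list, in units of the array's 75th percentile on a log axis; each bar runs from the lowest to the highest array, dark blue for the 4 controls and red for the 3 arrays labelled knockout. The bars do not meet for mast cells and basophils (7.66 to 10.7 against 18.5 to 30.2), megakaryocytes, monocytes and neutrophils, and overlap for dendritic, T, B and erythroid cells. Kit made up most of the mast cell and basophil sum in the arrays labelled knockout.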

How the data were processed

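RNA of 7 samples was read on 7 one-colour Agilent arrays. The authors deposited spot intensity, with a background-subtracted processed signal and flags for spots well above background. Per the file headers the software was Feature Extraction 10.7.3.1 of Agilent. A deposited series table holds log2 values of 34045 rows. Its scale, centring and direction are not stated. Differences between its arrays matched those of the scanner values (r at least 0.99999, slope 1), and its column medians were 0 except -0.02 on replicate 3 labelled knockout.

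The log2 intensity was set relative to the 75th percentile of the array's own non-control spots, leaving out spots marked as outliers and averaging the spots of a probe. That percentile was 3326 to 3825 intensity units on the arrays labelled knockout and 2671 to 3303 on the controls, so scaling itself differed between the groups. Probes were named through RefSeq accessions (GRCm38.p6), and 26413 of 55681 (47.4%) matched. The design also allowed a gene name column, which the files used here do not hold. Each of 14549 genes was read by its tested probe of highest mean signal. limma 3.58.1 in R 4.3.3 compared 3 with 4 arrays by lmFit and eBayes, with Benjamini-Hochberg adjustment, residual degrees of freedom of 5 and prior degrees of freedom of 3.09, and was tested on simulated data. Correlations across genes between arrays were 0.9855 to 0.9918 within groups. The number of arrays limits the precision. Same-numbered replicates did not deviate together, so no block was used. The rule names every tetraspanin gene, with values on each array for those past the threshold or with separate groups and an unadjusted p under 0.05. The members, the lists and the alternatives were chosen with earlier results of these data known, and the grouping of members by role, with the further genes given array by array, after their values were seen. For normexp the median signal was used, with an offset of 50 intensity units added. Some marker genes are not reported here by name.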

Additional observations from a re-analysis of the deposited data

Results flagged for a closer look

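In 2 of the 23 tested members, 1 control array stood apart from the other 3, its gap to the nearest being most of the group's range. Chance marks about 1 in 20 groups of this size in this way. For Tspan31 the gap of control replicate 1, at 3.38, was 0.876 of the range, against 3.72 to 3.77 on the others. For Cd53 the gap of control replicate 2, at 2.77, was 0.854 of the range, against 3.45 to 3.56 on the others. Neither gene passed the limma test in any of the 20 alternatives.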

How the results depend on the processing

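Each gene was followed over up to 20 alternatives, 7 of which leave out an array. The restriction to genes named by accession equals the reported fit and was not run apart. Cd63 kept its call in all of them, and Tspan12 in the 19 in which it was tested. In the fits with floors, some or all of the Tspan12 values labelled knockout were set by the floor. Tspan6 lost its call in 1, the fit with the replicate number as a block (difference 1.08, adjusted p = 0.0863). In that fit 0 members were higher and 2 lower, and over all genes 86 were higher and 95 lower, against 217 and 201. The correlation of deviations between same-numbered arrays was -0.10, -0.17 and -0.05, so the numbers do not show pairing, and under the block Cd36 and Itgb3 also missed the threshold (adjusted p = 0.134 and 0.0675). With array weights 2 members were higher, Cd81 and Tspan6, and 3 lower, Cd63, Tspan9 and Tspan12, in a fit that called 699 of all genes higher and 822 lower. Without a filter on background 4 were lower, adding Tspan9 and the dim Tspan1 (adjusted p = 0.00805), and 2483 of all genes were lower. With genes well above background on all 7 arrays only, 1 was lower, since Tspan12 was then not tested. Leaving out arrays gave 1 higher member each time and 2 to 3 lower. Among all genes, without an array, the higher count ran from 88 to 225 and the lower from 105 to 179. Of 33 genes followed, 27 kept their sign throughout. Signs turned, all without a call, for Tspan4 (0.025), Tspan7 (0.41) and Fzd4 (-0.033) with array weights, for Tspan15 (0.11) with the block, and, on leaving out single arrays, for Tspan33 (-0.056 to 0.35; below 0 without replicate 1 or 3 labelled knockout) and, above 0 without replicate 1 labelled knockout, for Tspan5 (-0.24 to 0.093) and Tspan7 (-0.78 to 0.098). Signals near background, as for Tspan7, Tspan12 and Tspan15, limit the size that can be given.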
